A study of Mus musculus with 4 samples.

Results

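The contractile thin filament of muscle is a polymer of actin wound with tropomyosin, and alpha-actinin ties the filaments together at the Z-disc. Mammals carry separate genes for the skeletal, cardiac and smooth muscle actins, for 2 alpha-actinins of the sarcomere and for 3 tropomyosins that muscle uses, and each tropomyosin gene also makes non-muscle forms by alternative promoters and splicing. In the embryo the cardiac actin is also made by developing skeletal muscle, while the skeletal actin is the main form of mature skeletal fibres. Here these 9 genes, Acta1, Actc1, Acta2, Actg2, Actn2, Actn3, Tpm1, Tpm2 and Tpm3, were followed through the tissues from which the mouse tongue arises. They were chosen by gene symbol on the array, which gave 22 probes of 56601, for 9 of 26695 named genes.

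The 4 tissues came from embryos of ICR mice, an outbred stock, with no treatment or genetic change given in the labels. MMA was the medial mandibular arch at E9.5 (12 embryos pooled), LLS the lateral lingual swellings at E11.5 (4 embryos), LMA the lateral mandibular arch at E11.5 (4 embryos) and T the tongue, medial region, at E14.5 (4 embryos). Each pool was read on 1 Agilent array with the dye Cy3 alone, so no tissue had a replicate, no test between tissues was possible and a difference between tissues cannot be told apart from one between pools. The region given for LLS reads medial although its name reads lateral, and the extraction text speaks of cerebellum. Of 9 cerebellum markers, 4 were not well above background in any tissue (Atoh1, Calb1, Gabra6 and Neurod1). The other 5 were in at least 1: Cbln1, Pcp2, Pvalb and Zic1 in all 4 and En2 in MMA and LMA. Cbln1 reached a signal of 794 in MMA and Pcp2 one of 1560 in LMA.

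Signals were well above background for 57.0% to 62.9% of the non-control spots, and no array had a saturated one (0 spots). Values below are the processed signals of the scanner files and, for differences, log2 signals after the 75th percentile of each array was subtracted (signals of 422 to 507). A difference of 1 is 2-fold. The error given with a difference is the log2 error that Feature Extraction assigns to the spots, which is wider than the spread of repeated spots (a median SD of 0.064 to 0.068 for a difference, over 291 probes printed 10 times). Neither covers the spread between pools. In such bulk tissue, fewer cells of a type and less RNA per cell cannot be told apart.

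The 10 skeletal muscle markers give the setting: MMA had 3 of them well above background, LLS 7, LMA 9 and T 10, and their summed level in units of the 75th percentile was 1.18, 8.19, 26.9 and 678.0 in that order. All 9 genes had a brightest probe that was well above background in every tissue, and 18 of the 22 probes were. The plot of all probes shows that Acta1, Actc1 and Actn2 had their lowest signal in MMA and their highest in T by their brightest probe. Actn3 was also lowest in MMA, while its T and LMA values differed by only 0.05 ± 0.20. Probes of one gene could go different ways.

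**Figure D1:**
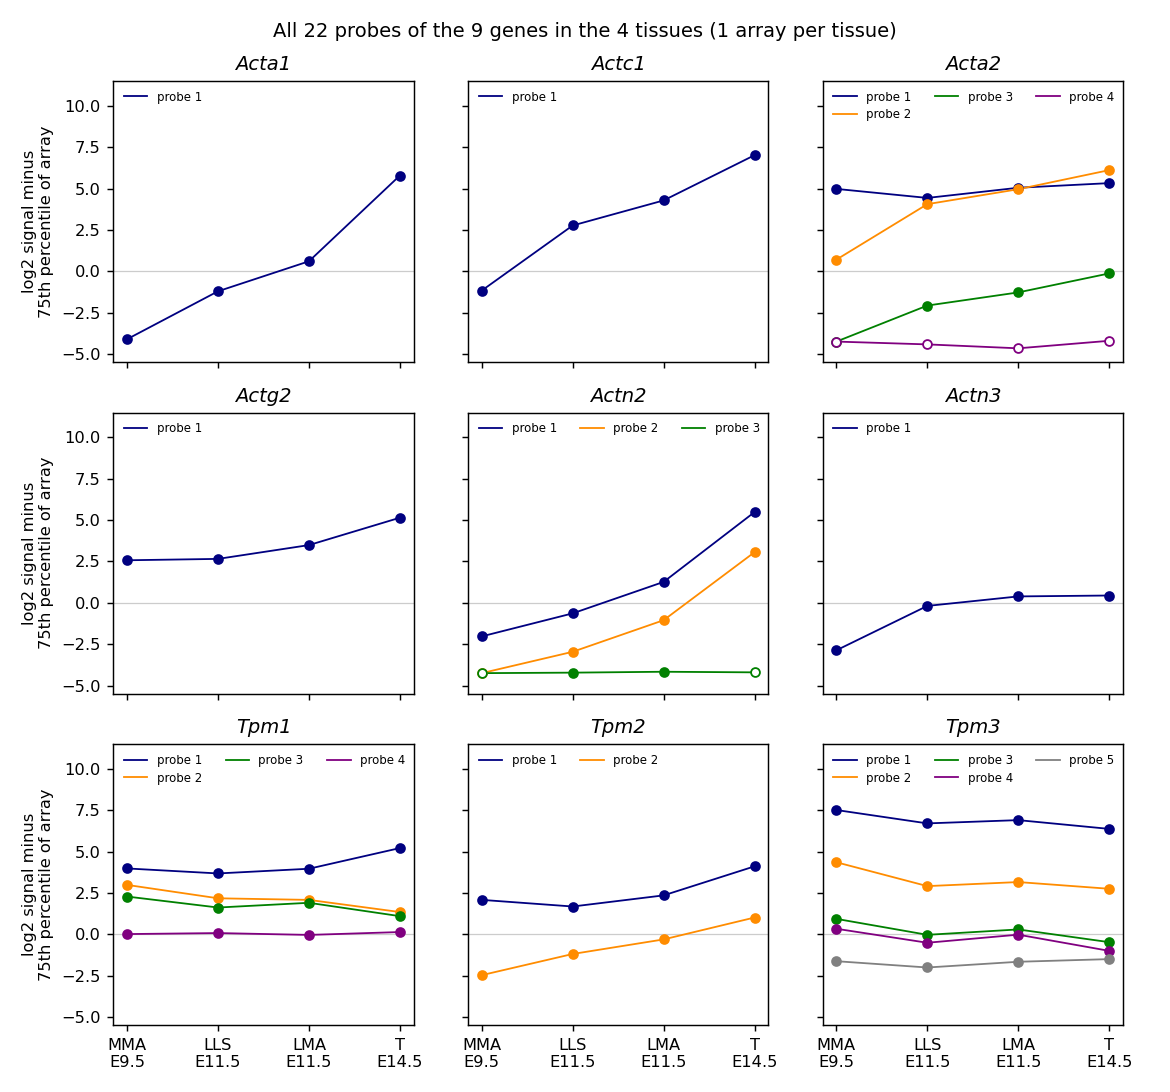
Log2 signal minus the 75th percentile of the array (vertical axis) for each of the 22 probes in MMA, LLS, LMA and T (horizontal axis), 1 array per tissue; probes are numbered from the brightest, lines only join the values of a probe, and open points were not well above background. Acta1, Actc1 and Actn2 climb from MMA to T, while Acta2 and Tpm1 hold probes with unlike courses.

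Among the genes studied here, the sarcomeric actins spanned the widest range. Acta1, the skeletal muscle alpha-actin, gave 24.5 (MMA), 197 (LLS), 771 (LMA) and 27135 (T) as its signals. It was barely above background in the early arch and bright in the tongue, a difference of 9.89 ± 0.34 between T and MMA (951-fold). With normexp background correction, which shrinks differences from dim values, the same contrast was 269-fold. Actc1, the cardiac muscle alpha-actin, gave 188 (MMA), 3105 (LLS), 9866 (LMA) and 63557 (T) as its signals, and T was 8.18 ± 0.21 above MMA (291-fold). Among 14629 genes well above background on all 4 arrays, 4 had a span over the tissues at least as wide as that of Acta1, itself included, and 13 at least as wide as that of Actc1. That filter leaves out muscle genes not well above background in MMA. Tnnc2 and Myh3 are examples, with T above MMA by at least 11.99 and 11.56, so these ranks hold only among the genes kept.

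Each of the 2 actins was read by 1 probe, in a stretch open in at least 1 reading frame. The bases are shown because the 2 genes encode nearly the same protein. Pairing of either probe with mRNA of the other gene or of further actins was not tested. The Acta1 probe lies at chr8:126416197-126416256, starting at base 958 of its transcript. The Actc1 probe crosses an exon junction, as its 60 bases cover chr2:113874011-113874934 (mm9, minus strand for both).
Acta1 probe: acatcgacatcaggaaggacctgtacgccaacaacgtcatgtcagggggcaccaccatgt
Actc1 probe: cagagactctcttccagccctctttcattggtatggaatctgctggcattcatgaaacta

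The 2 genes did not climb in step. From MMA to LLS the difference was 2.90 ± 0.34 for Acta1 and 3.93 ± 0.21 for Actc1. From LLS to T Acta1 was 128-fold higher (log2 error 0.21), and Actc1 was higher by 4.25 ± 0.20 (19-fold). The later change of Acta1 thus exceeded that of Actc1 by 2.75 ± 0.29 and the earlier one fell short of it by 1.04 ± 0.40 (2.05-fold). The earlier value rests on the dim Acta1 signal in MMA: with normexp the early changes were 1.52 for Acta1 and 3.54 for Actc1. Between T and LMA the changes were 5.18 and 2.73, apart by 2.45 ± 0.29.

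Upstream sequence is shown for these actin genes, since actin promoters are textbook carriers of the CArG box, the binding site of serum response factor. The box, whose pattern reads alike on both strands, was searched in the 250 bases before each RefSeq start. An exact box was found in 1.47% of 32851 such windows and a box with at most 1 mismatch in the inner bases in 8.59%. RefSeq promoter windows were matched for 7 of the 9 genes, with 2 for Tpm3 and so 8 in all. Boxes are in capitals, and the windows are chr8:123894776-123895025 for Acta1 and chr2:114052876-114053125 for Actc1, minus strand, GRCm38.p6.
Acta1 upstream: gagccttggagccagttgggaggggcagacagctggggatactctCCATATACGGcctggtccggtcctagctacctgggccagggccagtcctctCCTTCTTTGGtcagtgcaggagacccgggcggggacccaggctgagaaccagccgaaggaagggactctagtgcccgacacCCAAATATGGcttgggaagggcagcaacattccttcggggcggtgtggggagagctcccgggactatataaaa
Actc1 upstream: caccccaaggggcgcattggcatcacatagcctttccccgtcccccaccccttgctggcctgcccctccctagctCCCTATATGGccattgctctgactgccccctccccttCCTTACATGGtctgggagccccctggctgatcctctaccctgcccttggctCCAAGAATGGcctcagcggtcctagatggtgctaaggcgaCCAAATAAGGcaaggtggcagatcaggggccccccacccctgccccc

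The exact boxes were CCAAATATGG in Acta1, 73 bases before the start, and CCAAATAAGG in Actc1, 47 bases before it. Acta1 held 2 more boxes with 1 mismatch and Actc1 3 more. The Acta2 window held 2 boxes with 1 mismatch, CCCTATATGG and CCTTGTTTGG, at 84 and 34 bases before the start. Each Tpm3 window held 1 such box, and the windows of Actn2, Tpm1 and Tpm2 held 0. A match describes these letters only. Whether a box bears on the signal of its gene was not tested.

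The smooth muscle actin gene Acta2 gave unlike answers by probe. Its brightest probe, which covers an exon junction at chr19:34322995-34326249 and starts at base 335 of the transcript, gave 13311 (MMA), 9855 (LLS), 16781 (LMA) and 19716 (T) as its signals. By this probe T was 0.35 ± 0.20 above MMA, within 2-fold. The probe starting at base 1278 gave 687 (MMA), 7590 (LLS), 15773 (LMA) and 33999 (T) as its signals, and T was 5.41 ± 0.20 above MMA (42.5-fold). The probe starting at base 1641 had a signal of 4.88 in MMA, not well above background, and of 108, 209 and 448 in LLS, LMA and T, a difference of at least 4.12 between T and MMA. A probe from an epididymis cDNA clone was not well above background anywhere.

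The disagreement was widest in comparisons with MMA. The probe at base 1278 exceeded the brightest one in its change by 3.90 ± 0.29 between LLS and MMA and by 1.16 ± 0.29 between T and LLS. Between T and LLS all 3 usable probes were higher in T, by 0.89, 2.06 and 1.94. Actin genes are close to each other in their coding sequence, and pairing of the brightest probe with mRNA of other actins was not tested. The cytoplasmic actin genes, whose products build the cytoskeleton of every cell, were bright in all tissues: Actb had signals from 174678 to 194170 and Actg1 from 43644 to 82838. The probe is shown because the reading of Acta2 in the early arch turns on it.
Acta2 brightest probe: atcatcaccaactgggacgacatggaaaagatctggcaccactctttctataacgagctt

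Actg2, the enteric smooth muscle actin, was read by 1 probe across an exon junction (chr6:83472853-83473179). Its signals were 2512 (MMA), 2875 (LLS), 5700 (LMA) and 17381 (T). MMA and LLS differed by 0.08 ± 0.20, less than the spot error, and T stood above LLS by 2.49 ± 0.20 (5.62-fold). Its probe starts at base 456 of the transcript, and its pairing with other actins was not tested. Markers of smooth muscle went along in part: their summed level, from MMA through LLS and LMA to T, was 14.8, 23.7, 39.1 and 77.0. Of 7 compared, 5 were at least 2-fold higher in T than in LLS. Over all genes 12.9% were higher by that much in this contrast and 6.02% lower. Tagln, the transgelin gene, was 2.61 higher. Myh11, the smooth muscle myosin gene, was 1.03 lower, and Lmod1 was not well above background in any tissue. Among pericyte markers 4 of 6 exceeded 2-fold in T over LLS and 1 was lower, and the summed levels were 10.2, 17.8, 20.5 and 17.5 in the same order. The part of smooth muscle cells or pericytes in the Acta2 and Actg2 values was not tested.

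The alpha-actinins differed most clearly from each other. Actn2, the form of all striated muscle, gave 103 (MMA), 293 (LLS), 1218 (LMA) and 21999 (T) as its signals, which put T above LLS by 6.12 ± 0.21 (69.7-fold). By this probe T was 183-fold above MMA (111-fold with normexp). A second probe (chr13:12364990-12367362) gave 12.9, 58.7, 245 and 4098, not well above background in MMA, and T above LLS by 6.02. These 2 probes therefore gave the same change within 0.10. The other Actn2 probe, from a corpus striatum cDNA clone, stayed between 16.6 and 28.3.

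Actn3, the alpha-actinin of fast fibres, gave 57.8 (MMA), 401 (LLS), 664 (LMA) and 667 (T) as its signals. The early contrast was the large one: LLS was 2.68 ± 0.24 and LMA 3.26 ± 0.24 above MMA, while T differed from LMA by 0.05 ± 0.20. With normexp LLS was 3.43-fold above MMA in place of 6.42-fold, and LMA 4.92-fold in place of 9.56-fold. The change of Actn2 between LMA and T exceeded that of Actn3 by 4.17 ± 0.29, whereas from MMA to LMA the changes were 3.29 and 3.26, apart by 0.04 ± 0.32 (2.67 and 2.30 with normexp). Actn3 had 1 probe, at chr19:4861727-4862212, so this course has no check by another.

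The tropomyosin genes gave unlike courses by probe. Tpm1 had 4 probes. The brightest (chr9:66878844-66878903), annotated to 4 RefSeq transcripts with the variant Tpm1.1 first, gave 6689 (MMA), 5863 (LLS), 7938 (LMA) and 18279 (T) as its signals. T exceeded LLS by 1.53 ± 0.20 (2.9-fold), and the 3 earlier tissues lay within 0.30 of each other. The next probe (chr9:66880274-66880333), whose listed transcripts are led by the variant Tpm1.5 and do not name Tpm1.1 (Tpm1.5 is listed for both probes), gave 3357 (MMA), 2070 (LLS), 2152 (LMA) and 1252 (T) as its signals. It was lower in T than in MMA by 1.64 ± 0.20, so that the 2 probes parted by 2.87 ± 0.29 over that span. A cDNA-clone probe was also lower in the tongue (2060 in MMA, 1054 in T). The probe led by Tpm1.10, a variant also listed for the brightest probe, stayed between 428 and 542.
Tpm1 probe led by Tpm1.1: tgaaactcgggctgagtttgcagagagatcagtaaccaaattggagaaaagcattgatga
Tpm1 probe led by Tpm1.5: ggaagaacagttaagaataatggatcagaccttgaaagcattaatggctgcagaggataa

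Tpm2, the beta-tropomyosin gene, had 2 probes that agreed late and not early. The probe for the variants Tpm2.3 and its like (chr4:43532262-43532321) gave 1794 (MMA), 1467 (LLS), 2600 (LMA) and 8501 (T) as its signals. The probe for Tpm2.2, the form known from skeletal muscle (chr4:43527892-43527951), had 76.6, 201, 411 and 996. From LLS to T the differences were 2.43 ± 0.20 and 2.20 ± 0.21, apart by less than the error of 0.29. From MMA to LLS they had opposite signs, -0.40 ± 0.20 and 1.28 ± 0.22. In T both probes stood above MMA, by 2.03 and by 3.48.

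Tpm3, the gamma-tropomyosin gene, was the member whose main signal was lowest in the tongue. The brightest probe, listed for 4 RefSeq transcripts led by Tpm3.1, a form known from the cytoskeleton of most cells (chr3:89904428-89904487), gave 77378 (MMA), 47730 (LLS), 60854 (LMA) and 40807 (T) as its signals. T was 1.14 ± 0.20 below MMA (2.21-fold), a difference that shrank to 0.73 with quantile normalization and 0.68 with cyclic loess. Of its 5 probes, 4 were lower in T than in LLS, by 0.16 to 0.49. The probe led by Tpm3.12, the slow muscle form, was the exception, and it is also listed for the variant Tpm3.4: its signals were 137 (MMA), 114 (LLS), 161 (LMA) and 174 (T), 0.51 ± 0.22 above LLS. Relative to the brightest probe this was a change of 0.84 ± 0.30.
Tpm3 probe led by Tpm3.12: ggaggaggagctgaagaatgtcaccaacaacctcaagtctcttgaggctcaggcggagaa

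**Figure D2:**
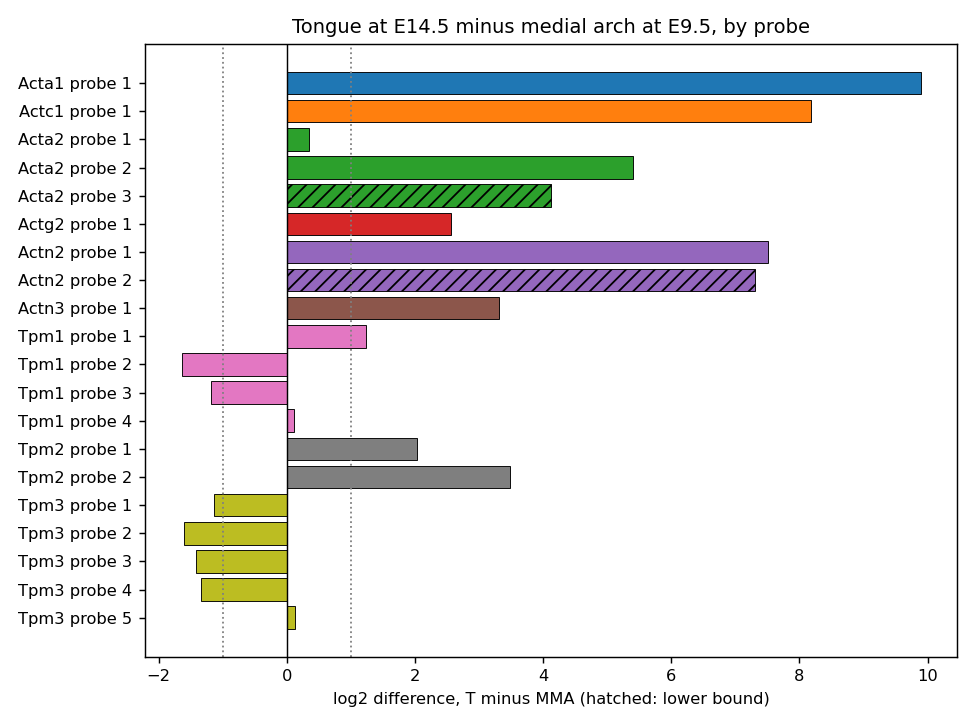
Log2 difference between T and MMA (horizontal axis) for the 20 member probes detected in either tissue; probes are numbered from the brightest, hatched bars are lower bounds and dotted lines mark 2-fold. Of these probes 11 are higher by more than 2-fold and 6 lower by more than 2-fold, and Tpm1 has bars on both sides of 0. Several probes read the same gene. By the brightest probe 7 genes were at least 2-fold higher (18.3% of all genes) and 1 lower (13.8%).

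At one stage, E11.5, the lingual swellings were compared with the lateral arch. All 9 genes had lower signal in LLS by their brightest probe, 3 of them by at least 2-fold, against 2.86% of 17487 genes, and 0 were at least 2-fold higher (3.66%). The 3 were Actn2 (-1.90), Acta1 (-1.81) and Actc1 (-1.52), and Tpm3 (-0.20) and Tpm1 (-0.28) were nearest to 0. The median was -0.67 beside 0.01 for all genes. The direction held under every scaling tried, while 2 other Tpm1 probes were higher in LLS, by 0.10 and 0.11. Skeletal muscle markers were lower too, 6 of 9 by at least 2-fold, and so were endothelial markers, 5 of 8 (median -1.22). The part of either cell type in the result was not tested.

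**Figure D3:**
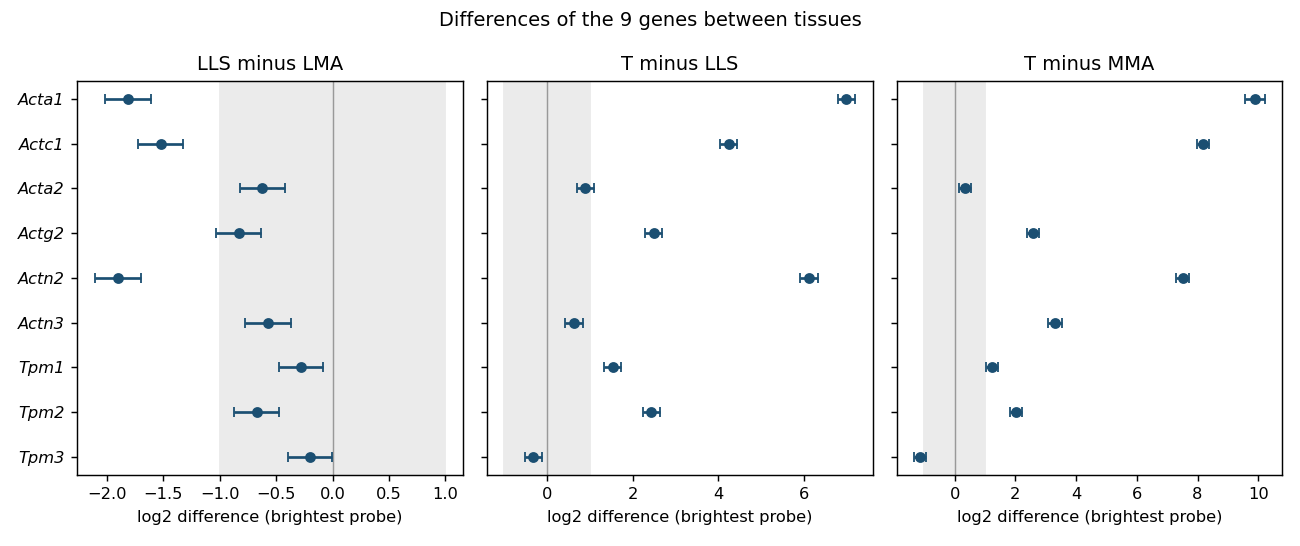
Log2 difference of the brightest probe of each gene (horizontal axis) for LLS minus LMA, T minus LLS and T minus MMA; points are single-array values, bars are the combined log2 error of the spots from Feature Extraction, and the grey band marks less than 2-fold. All 9 points lie below 0 in LLS minus LMA and 8 lie above 0 in T minus LLS.

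Against MMA, LLS had 4 of the genes higher by 2-fold or more (9.74% of 16871 genes were) and the same 4, Acta1, Actc1, Actn2 and Actn3, in LMA (10.6% of 17484). At least 2-fold lower were 0 of 9 in LLS (5.63% of all genes) and 0 of 9 in LMA (7.22%). With normexp, Actn2 in LLS was 1.97-fold above MMA and so short of the threshold, and Actg2 in LMA, 0.92 above MMA, reached 1.20 with cyclic loess. The medians were 0.08 and 0.92, beside -0.06 and -0.09 for all genes. Against LLS, 6 of the 9 were higher in T by 2-fold or more (12.9% of 17490 genes) and 0 lower (6.02%), with Acta2, Actn3 and Tpm3 within 2-fold and a median of 2.43. Acta2, at 0.89, passed 2-fold with cyclic loess (which made the count 7), with the median over probes (1.94) and with the second brightest probe (2.06). Under the same probe rules Tpm1 lost its place, at -0.23 and -0.83, and the count stayed 6. Against LMA the count was again 6 higher (14.2% of 18030) and 0 lower (7.22%), with a median of 1.66. Against MMA, 7 were higher in T (18.3% of 17397) and 1, Tpm3, lower (13.8%), with a median of 2.57. Over all genes that contrast had 3192 higher and 2402 lower, and 3945 and 1427 with cyclic loess. These comparisons share arrays, so their counts are not independent.

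Cardiac muscle also expresses Actc1, Actn2 and Tpm1, and its markers are given for that reason. Of the 10, MMA had 5 well above background, LLS 4, LMA 6 and T 9, and their summed level in that order was 2.38, 2.87, 3.25 and 10.5. Of 9 compared, 5 were higher in T than in MMA by 2-fold or more (18.3% of all genes were). Nkx2-5 (3.29) and Myh6 (2.74) were among them, and 1, Myl7, was lower (13.8% of all genes). Myl7, the atrial light chain gene, had a signal of 513 in MMA and of 60.6 to 138 elsewhere, and Gata4 was not well above background in any tissue. The part of cardiac cells in the MMA signals was not tested.

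The non-muscle relatives of these genes stayed within 2-fold between the tongue and the swellings. Actb, Actg1, Actn1, Actn4 and Tpm4 serve the cytoskeleton. Of these, 0 of 5 differed by at least 2-fold between T and LLS, with values from -0.54 to 0.33. Over all genes 12.9% were higher in T than in LLS by that much and 6.02% lower, so most genes also stayed within 2-fold. Actg1 was the 1 at least 2-fold lower in T than in MMA (-1.09), beside 13.8% of all genes. The genes listed for thin filament length and assembly were higher in the tongue in part. Of 19 compared, 11 were at least 2-fold higher in T than in LLS (12.9% of all genes) and 0 lower (6.02%). Their median was 1.44 beside -0.07 for all genes. Lmod3, a leiomodin that nucleates actin in skeletal muscle, was 4.89 higher, the nebulin gene Neb 4.33 and the capping tropomodulin gene Tmod1 4.06. The other tropomodulin genes, Tmod2 (-0.61), Tmod3 (0.26) and Tmod4 (0.49), were within 2-fold. The capping protein genes of all cells, Capza1 (-0.09), Capza2 (0.01) and Capzb (-0.30), were within 2-fold.

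Among the Z-disc partners of alpha-actinin, 10 of 13 compared were at least 2-fold higher in T than in LLS and 0 lower (median 5.02). Ttn, the titin gene, was 5.02 higher, Tcap, its cap protein gene, 5.40 and Csrp3, for a muscle LIM protein, at least 8.89, while Pdlim7 (-0.24), Synpo2l (-0.07) and the non-muscle Actn1 (-0.28) were within 2-fold. Of 8 genes for serum response factor, its cofactors and the MEF2 family, 1 was at least 2-fold higher in T than in LLS. The share over all genes was 12.9%, and the count is near it. The 1 gene was Mef2c (2.88, from a signal of 728 in LLS to 5774 in T). Srf itself was 0.53 higher and its cofactor genes Mrtfa and Mrtfb 0.55 and 0.14. Myocd, the cofactor gene of heart and smooth muscle, was dim, with signals from 14.3 to 33.4. Setd3, which encodes the enzyme that methylates actin, differed by 0.01 and Naa80, for its N-terminal acetylation, by -0.29.

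**Figure D4:**
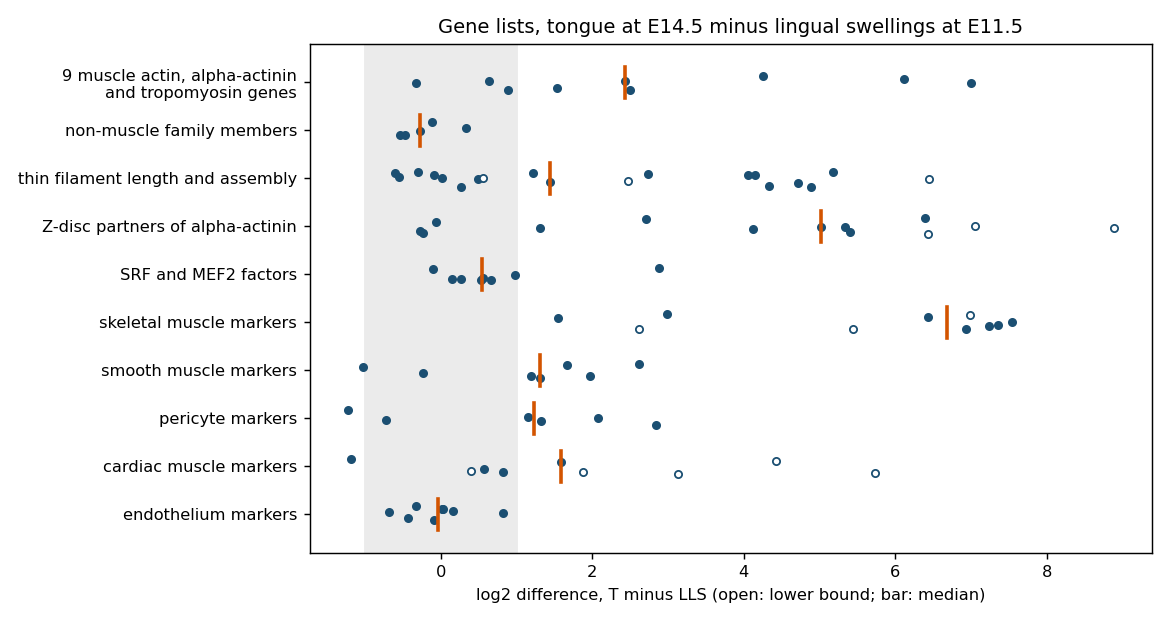
Log2 difference between T and LLS (horizontal axis) for each gene of the lists detected in either tissue; open points are lower bounds, orange bars the list medians and the grey band less than 2-fold. The 5 non-muscle relatives lie inside the band, as most genes compared on the arrays do. The median is 2.43 for the 9 muscle genes and 6.68 for the skeletal muscle markers.

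For the members the genes with the most similar course over the 4 tissues were sought, by the root mean square difference of centred log2 signals among 5574 genes that were well above background throughout and spanned at least 1. Over 4 points such likeness is a description only. Nearest to Acta1 was Myh8, the perinatal myosin gene, at 0.202, with Myl1 and Tnnt2 next at 0.587 and 0.639. Nearest to Actn2 were Mybph (0.206), Tnnt2 (0.256) and Apobec2 (0.366). Actc1 had no neighbour that close among the genes ranked: Lmod3 stood at 0.679 and the collagen gene Col6a1 at 0.684. Muscle genes not well above background in MMA, such as Ttn, Neb, Myh3, Myog and Tnnc2, could not be ranked. Actg2 lay nearest to Fhad1 (0.085), Actn3 to Adgrb2 (0.096) and Tpm1 to Zbtb18 (0.016). Tpm2 lay nearest to Plpp7 (0.060), and Tagln was its rank 3 neighbour at 0.123. Acta2 by its brightest probe spanned 0.89 and was not ranked.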

How the data were processed

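The members and gene lists were chosen with earlier results of these data known. Per the file headers, the intensity of each spot came from Feature Extraction 10.7.1.1 (the submitters' processing notes list 9.5.1.1), with spatial and multiplicative detrending and surrogates for dim spots. A deposited value table gives linear intensity too. Its columns share a maximum of 308667, have medians from 50.5 to 51.9 and correlate with the scanner log2 signals at 0.999 or above, and its normalization and any centring are not given in the sources used here.

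Flagged spots and 4 probes without an unflagged spot were left out, spots of a probe were averaged, and log2 signals were centred on the 75th percentile of the array. A value not well above background was raised, where lower, to the dimmest value that was, so its difference is a bound. Of 56601 probes, 32990 were named by RefSeq accession, 10224 by a current and 520 by an older symbol, 2040 kept the symbol of the file and 10827 had none. The brightest probe by mean signal stood for a gene, and genes were counted at 2-fold or more. Named genes were all members with every probe, the list genes and, among the 3 genes most like each member, the nearest ones; those of Tpm3 are not reported here. Alternatives used limma 3.58.1 (normexp offset 50, quantile, cyclic loess). Counting was tested on simulated data.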

Additional observations from a re-analysis of the deposited data

How the results depend on the processing

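The choice of probe moved results most, and scaling moved few. A change of verdict here means passing or losing 2-fold, as no test was possible; the cause was not tested except where the probe itself is the choice. With the second brightest probe, Acta2 in LLS minus MMA was 3.35 and Tpm2 was 1.28, both reversed, and Tpm1 was -0.83, -0.73 and -1.64 against LLS, LMA and MMA in T. With the median over probes Acta2 in LLS minus MMA was 2.18 and Tpm1 in T was -0.23, -0.28 and -0.53. The median of the members in LLS minus MMA then passed 2-fold, at 1.29 with either probe rule, and in LMA minus MMA it was 2.97 with the median over probes and 3.20 with the second probe. The latter median also passed 2-fold with quantile normalization (1.11), cyclic loess (1.20) and the authors' value table (1.11). The count of members lower in T minus MMA, 1 with the brightest probe, was 0 with quantile normalization, cyclic loess and the value table, and 2 with the second probe, which also gave 1 lower member in LLS minus MMA and in LMA minus MMA. At 4-fold, 0 members were lower in LLS minus LMA, 3 were higher in T minus LMA, whose median of 1.66 then fell short, and 0 were lower in T minus MMA. Of the differences of single members, 349 kept their side of 2-fold, 16 passed it, 4 lost it and 9 reversed. Part of the 349 could not change. Every brightest probe was well above background, so leaving out filter and floor altered nothing for the members. Acta1, Actc1, Actg2 and Actn3 have 1 probe each and stay the same under both probe rules. The authors' value table gave nearly the values of quantile normalization. Over all genes, the median in T minus MMA went from -0.10 to 0.18 under cyclic loess, and that in T minus LLS from -0.07 to 0.09. With normexp fewer genes of the whole array passed 2-fold, for example 364 higher and 204 lower in LLS minus LMA (640 and 501 otherwise) and 2204 and 1727 in T minus MMA, and with neither filter nor floor, over 26695 genes, 1475 and 1799 did in LLS minus LMA. No paired analysis was possible because each tissue had 1 array, and for the same reason no replicate could be left out. A slide block could not be fitted on 1 slide. Dim values such as Acta1 in MMA, at a signal of 24.5 where the lowest well-above-background signal was 22.2, limit every fold against that tissue.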
